A study of Mus musculus with 6 samples.

Results

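Fc receptors are the surface proteins through which leukocytes bind antibody, and most of them signal through small partner chains that carry an ITAM, a pair of tyrosines that is phosphorylated and then recruits the kinase Syk or Zap70. The genes described here are 10 Fc receptor chains and adaptors, chosen by name and measured by every probe set that the platform annotation assigns to them, 16 of the 45037 tested. They are the IgE receptor chains Fcer1a and Ms4a2, the IgG receptors Fcgr1, Fcgr2b, Fcgr3 and Fcgr4, the neonatal Fc receptor Fcgrt, and the signalling partners Fcer1g, Tyrobp (also called DAP12) and Hcst (also called DAP10). Fcer1g is the shared gamma chain that IgE and activating IgG receptors need to reach the surface. Tyrobp serves many activating receptors of myeloid and NK cells, and Hcst, which has no ITAM but a motif that recruits PI3 kinase, serves the NKG2D receptor of NK and CD8 T cells. Most of these genes are known from myeloid cells, mast cells and NK cells, and resting T cells mainly use the T cell receptor's own CD3 and Cd247 chains.

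The samples were T cells obtained from single spleens of male C57BL/6 mice aged 10 weeks by depleting other cells. Of these mice 3 lacked miR-142 (KO) and 3 were wild-type littermates (WT), each on 1 Affymetrix array. The labels name no Cre driver or cell type for the deletion. miR-142 is a microRNA of the blood lineages, and its mature strands are shown because they are what the KO mice lack, with the seed (bases 2 to 8) in capitals, from RefSeq on GRCm38.p6.
mmu-miR-142a-5p: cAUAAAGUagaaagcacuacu
mmu-miR-142a-3p: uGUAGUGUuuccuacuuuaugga

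The transcript listed as Mir142 read 7.93, 8.13 and 7.67 on the WT arrays and 5.97, 5.88 and 5.90 on the KO arrays, in log2 intensity (its position relative to the deletion is not given in the sources used here). Array medians ran from 5.70 to 5.77. The hybridization controls, added at fixed amounts, averaged 10.21 in WT and 9.85 in KO. RNA integrity, read as how far the 3' beta-actin control probe set lay above its 5' partner, gave 0.16 to 0.23 on WT arrays and 0.32 to 0.40 on KO arrays, and its part in the results was not tested. Markers of the labelled cell type were bright in WT, and all 10 measured T cell markers fell in KO, with a list mean of 12.11 to 12.13 on the WT arrays and 9.34 to 10.73 on the KO arrays. Throughout, "rose" and "fell" mean an adjusted p below 0.05 in limma with Benjamini-Hochberg adjustment over all probe sets, and a difference is the KO mean less the WT mean, in log2 units.

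Of the 16 probe sets, 11 rose, 2 fell and 3 did not pass the test. Over all probe sets 13.9% rose and 15.5% fell, and the median difference was -0.08, against 2.57 for the 16. Arrays of the genotypes did not overlap for any of the 16, with the KO arrays above in 13 and below in 3, where 18.5% and 27.4% of all probe sets separated in those directions. Those that rose belonged to the IgE receptor chains, the IgG receptors Fcgr3, Fcgr2b and Fcgr1, and the ITAM adaptors Fcer1g and Tyrobp, and those that fell to Hcst and Fcgrt. Fcgr4, the brighter probe set of Fcgr1 and the dimmest of Fcgr2b did not pass. In bulk RNA, fewer cells of a type and less RNA per cell cannot be told apart.

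**Figure D1:**
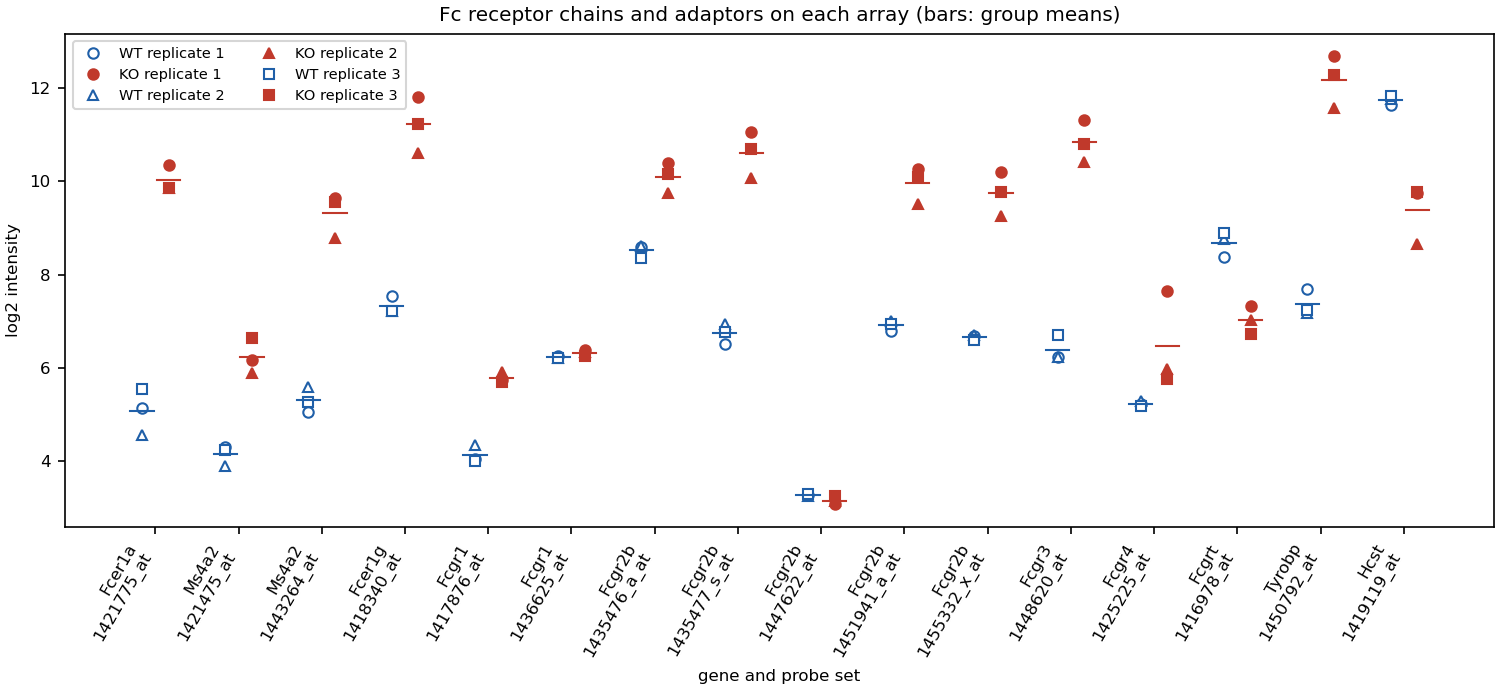
The log2 intensity (vertical axis) of each probe set of the 10 genes (horizontal axis) is plotted for the 3 WT arrays (open) and the 3 KO arrays (filled), with short bars at the group means. For Tyrobp the KO arrays sit between 11.57 and 12.69 and the WT arrays between 7.18 and 7.70, whereas for Hcst the KO arrays sit below the WT arrays.

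Fcer1a, the chain of the high-affinity receptor that binds IgE, read 5.13, 4.56 and 5.54 on the WT arrays and 10.35, 9.86 and 9.85 on the KO arrays. All KO values lay far above all WT values. It rose 30.8-fold (4.94 ± 0.25, SE, n = 3 per group, limma adjusted p = 3.4e-05), and only 33 of the 45037 probe sets had a larger difference. Ms4a2, the beta chain that amplifies the signal of this receptor, was measured by a pair of probe sets. Its probe set 1443264_at went from 5.06, 5.59 and 5.26 in WT to 9.64, 8.79 and 9.55 in KO, a rise of 4.02 ± 0.24 (limma adjusted p = 5.7e-05). The dimmer 1421475_at read 4.31, 3.89 and 4.23 in WT and 6.16, 5.89 and 6.64 in KO, and rose by 2.09 ± 0.20 (limma adjusted p = 0.00034). Fcer1a and both Ms4a2 probe sets stood higher on every KO array than on any WT array.

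Fcer1g, the gamma chain shared with the IgG receptors, read 7.54, 7.23 and 7.22 in WT and 11.82, 10.60 and 11.24 in KO. It rose 14.8-fold (3.89 ± 0.28, SE, n = 3 per group, limma adjusted p = 0.00011). Taken within arrays, the difference of Fcer1a exceeded that of Fcer1g by 1.05, with an exact two-sided permutation p = 0.1. That is the smallest p that 3 arrays against 3 can give, so none of the 7 such contrasts between genes could pass 0.05, and the smallest value adjusted over them is 0.117.

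Among the IgG receptors, Fcgr3, a low-affinity activating receptor that signals through Fcer1g, changed most. It read 6.23, 6.24 and 6.70 in WT and 11.32, 10.40 and 10.79 in KO, a rise of 21.9-fold (4.45 ± 0.24, SE, n = 3 per group, limma adjusted p = 3.9e-05). Fcgr1, the high-affinity IgG receptor, depended on the probe set. Its 1417876_at rose 3.14-fold, from 4.04, 4.34 and 4.01 to 5.75, 5.90 and 5.70 (limma adjusted p = 0.0001), while the brighter 1436625_at stayed near 6.22 in WT and 6.33 in KO. The difference of 1436625_at was 0.10, with a 95% confidence interval of -0.09 to 0.29 (limma adjusted p = 0.389). It passed the test only when arrays were scaled to the hybridization controls (0.47, adjusted p = 0.01).

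Fcgr4, an activating IgG receptor of neutrophils and monocytes, read 5.22, 5.28 and 5.17 in WT and 7.65, 5.98 and 5.76 in KO. KO replicate 1 stood well above the other KO arrays, and the gene did not pass the test (1.24 ± 0.45, SE, n = 3 per group, limma adjusted p = 0.078). Without KO replicate 1 the difference was smaller, 0.65, but passed (adjusted p = 0.0073). Without KO replicate 2 or 3 it was 1.48 and 1.59 (adjusted p = 0.047 and 0.044). With all arrays kept but scaled to the hybridization controls it was 1.61 and passed (limma adjusted p = 0.017). Over all alternatives the adjusted p ranged from 0.0073 to 0.714. KO replicate 1 also had the highest mean of the neutrophil markers, 12.61, where the other KO arrays had 9.91 and 10.51. The gap was uneven over that list. Elane, Mpo, Prtn3 and Ctsg were nearly level, with Mpo at 14.07, 13.65 and 14.03 in KO replicates 1, 2 and 3. Mmp8 read 10.18, 5.75 and 6.30 on the same arrays. The part of neutrophil RNA in the Fcgr4 values was not tested.

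Fcgr2b is the inhibitory IgG receptor, which carries an ITIM in its tail and restrains the activating receptors. Of its 5 probe sets 4 rose, by 1.58 to 3.87. The brightest, 1435476_a_at, read 8.58, 8.62 and 8.35 in WT and 10.39, 9.74 and 10.16 in KO, a rise of 2.99-fold (limma adjusted p = 0.00054). The rise was 14.6-fold at 1435477_s_at, from 6.51, 6.94 and 6.77 to 11.05, 10.08 and 10.69, and 8.26-fold and 8.49-fold at 1451941_a_at and 1455332_x_at. The suffixes _s_at and _x_at mark probe sets that can also match related transcripts. Mouse Fcgr2b and Fcgr3 are close relatives in their extracellular part, so the values at 1435477_s_at and 1455332_x_at are uncertain. The suffix of 1451941_a_at is neither of these, and whether its probes match Fcgr3 was not tested. The remaining 1447622_at was among the dimmest on the array, with only 0.742% of probe sets below it in WT, and differed by -0.12 (95% confidence interval -0.32 to 0.07, limma adjusted p = 0.317). Its direction turned to 0.24 under hybridization-control scaling.

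The difference of activating Fcgr3 exceeded that of inhibitory Fcgr2b at each of the 4 Fcgr2b probe sets that rose, but by unequal amounts. The contrast was 2.87 (7.32-fold) against the brightest Fcgr2b probe set, with the Fcgr3 minus Fcgr2b value at -2.35, -2.38 and -1.65 on the WT arrays and 0.94, 0.66 and 0.63 on the KO arrays. It was only 0.58 against 1435477_s_at, and 1.40 and 1.37 against 1451941_a_at and 1455332_x_at, choices made after the values were seen. The exact two-sided permutation p was 0.1 in each. For Fcgr4 minus Fcgr2b the contrast was -0.34, with an exact permutation p = 0.7. The contrast of Fcgr1 with Fcgr2b depended on the probe sets. With the flat Fcgr1 probe set it was -1.48 against the brightest Fcgr2b probe set and -3.76, -2.94 and -2.98 against the others that rose. With 1417876_at it was 0.073 against the brightest (exact two-sided permutation p = 0.9) and -2.21, -1.39 and -1.43 against those others. Against the dim 1447622_at it was 0.23 with the flat Fcgr1 probe set and 1.77 with 1417876_at.

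**Figure D2:**
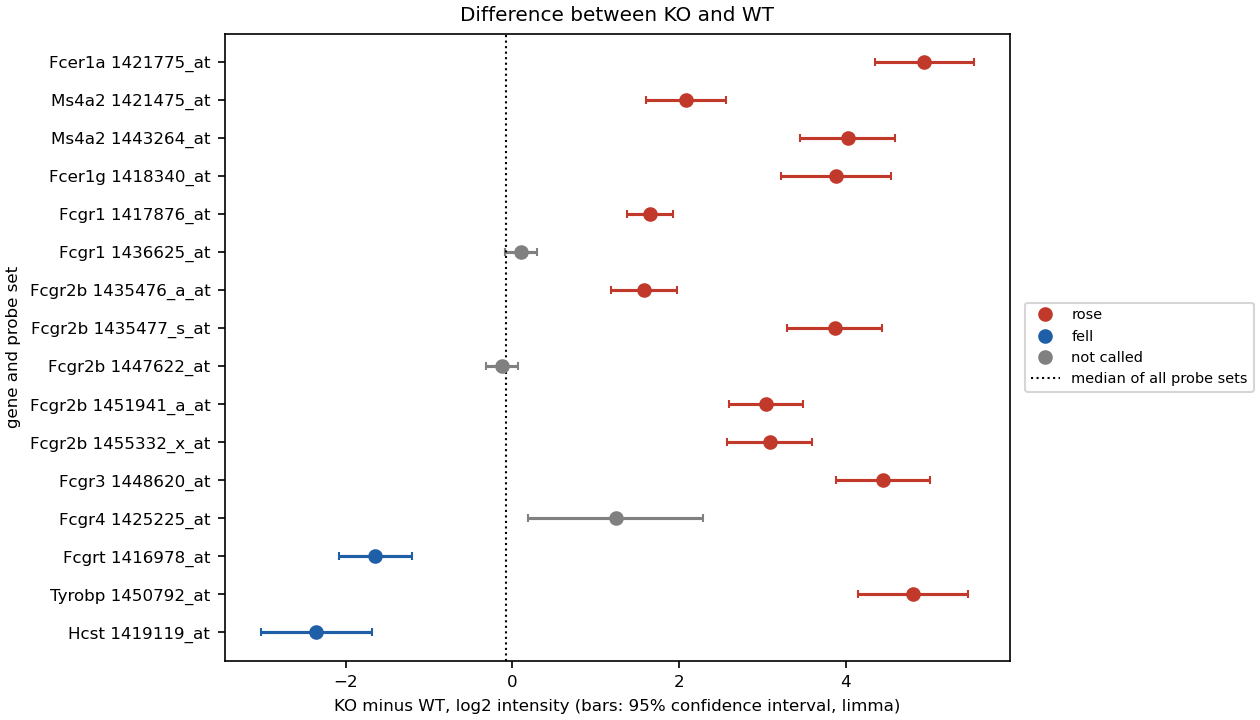
KO minus WT in log2 intensity (horizontal axis) is shown for each of the 16 probe sets (vertical axis), with 95% confidence intervals from limma that are not adjusted for the number of probe sets, and a dotted line at the median of all probe sets. Of the 5 Fcgr2b probe sets 4 lie between 1.58 and 3.87, and Fcgrt and Hcst are the genes whose intervals lie wholly below 0.

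Tyrobp, the ITAM adaptor of receptors such as the TREM family, read 7.70, 7.18 and 7.24 in WT and 12.69, 11.57 and 12.29 in KO. It rose 28.0-fold (4.81 ± 0.28, SE, n = 3 per group, limma adjusted p = 5.1e-05), and in KO only a small share of the array was brighter, with 98.1% of probe sets below it. Hcst, the other transmembrane adaptor, was at 11.63, 11.77 and 11.82 in WT and at 9.75, 8.66 and 9.76 in KO. It fell 5.11-fold (-2.35 ± 0.29, limma adjusted p = 0.00091). Tyrobp and Hcst are immediate neighbours on chromosome 7 in the RefSeq gene table of GRCm38.p6, so adjacent genes went opposite ways. Within the arrays, Tyrobp minus Hcst moved from -3.93, -4.59 and -4.58 in WT to 2.94, 2.91 and 2.53 in KO, a contrast of 7.16 (exact two-sided permutation p = 0.1). Nfkbid, the next gene beyond Hcst and named after its values were seen, differed by -0.85 (limma adjusted p = 0.079).

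Klrk1, the NKG2D receptor that pairs with Hcst, also fell, by 1.54 ± 0.19 (SE, n = 3 per group, limma adjusted p = 0.00098), from 8.81, 9.07 and 9.19 to 7.50, 7.12 and 7.84. It was the single gene to fall among 17 measured receptors that pair with Fcer1g, Tyrobp or Hcst, and is named after its values were seen. Of the same list 7 rose (11 with arrays scaled to their hybridization controls). Trem3, a Tyrobp partner of the TREM family, rose by 4.61 ± 0.30, Clec5a, another Tyrobp partner, by 4.05 ± 0.34, and Cd300lb, an activating receptor of myeloid cells, by 3.80 ± 0.33. Clec4e, the Mincle receptor that signals through Fcer1g, rose by 2.49 ± 0.20. The median of the list was 0.76, against -0.06 over all genes, of which 18.6% rose and 18.6% fell at their brightest probe set. Ncr1, Klrc2, Oscar and Gp6 had differences between -0.16 and 0.12 that did not pass the test. They were dim in both genotypes, at 4.55, 3.73, 5.08 and 5.68 in WT and 4.68, 3.58, 5.01 and 5.52 in KO. With probe sets below the median level left out, 9 of the 17 remained and 6 of those rose, where 25.3% of all remaining probe sets rose.

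Fcgrt, the neonatal Fc receptor, differs in kind from the others: it is an MHC class I-like protein that protects IgG and albumin from breakdown inside cells and has no ITAM partner. It read 8.38, 8.76 and 8.89 in WT and 7.33, 7.02 and 6.73 in KO. Every KO array lay below every WT array, and it fell 3.13-fold (-1.65 ± 0.19, SE, n = 3 per group, limma adjusted p = 0.00067). Of its measured chromosome 7 neighbours, Rcn3 fell by 1.49 ± 0.12 (limma adjusted p = 0.00017) and Rpl13a differed by -0.07 (limma adjusted p = 0.518). Across the 14 nearest measured protein-coding neighbours of the 10 genes, excluding the genes themselves, 3 rose, 2 fell and 9 did not pass. That is near the share over all genes, of which 18.6% rose and 18.6% fell, and the look was taken after the values were seen. Ms4a3, next to Ms4a2 on chromosome 19, rose by 6.03 ± 0.21, and the neighbours of Fcer1g, Apoa2 and Adamts4, differed by 0.04 and -0.02.

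Among 8 other measured Fc receptor genes, Trim21, a cytosolic receptor that binds antibody on pathogens that have entered the cell, fell by 1.27 ± 0.16 (SE, n = 3 per group, limma adjusted p = 0.00097), and the other 7 did not pass. Fcer2a, the low-affinity IgE receptor of B cells, Fcrl1, Fcrla and Fcmr, the IgM receptor, were in the latter group, with differences from -0.54 to 0.39. Without KO replicate 1, 3 of the 8 fell in place of 1.

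Of 6 ITAM chains of the antigen receptors 4 fell, all of them chains of the T cell receptor, where 18.6% of all genes fell. Against a minimum change of 1.5-fold (limma's treat) 1 of the 6 fell. That minimum took the share of all probe sets that fell from 15.5% to 2.58%. Cd247, the zeta chain, which is structurally related to Fcer1g, went from 11.96, 11.77 and 12.03 in WT to 9.59, 8.44 and 9.83 in KO. It fell 6.19-fold (-2.63 ± 0.33, SE, n = 3 per group, limma adjusted p = 0.001). Cd3d fell by 1.74 ± 0.35, Cd3e fell by 1.66 ± 0.36 and Cd3g fell by 1.51 ± 0.30. Fcer1g minus Cd247 within arrays changed by 6.52 (exact two-sided permutation p = 0.1), from -4.41, -4.54 and -4.81 to 2.23, 2.16 and 1.41. The B cell receptor chains Cd79a and Cd79b differed by 1.43 and 1.09 and did not pass (limma adjusted p = 0.212 and 0.087). Both were highest in KO replicate 2, at 9.40 and 10.40 against 6.18 to 6.58 and 8.60 to 9.12 in the other KO arrays.

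Of 21 measured kinases and adaptors that act after an ITAM is phosphorylated, 8 rose and 9 fell (5 and 5 against a minimum change of 1.5-fold). Over all genes 18.6% rose and 18.6% fell, and against that minimum 4.65% of all probe sets rose and 2.58% fell. The members with the largest rises were Plcg2, a phospholipase of B and myeloid cells, by 3.18 ± 0.16 (SE, n = 3 per group, limma adjusted p = 3.3e-05), Gab2, a scaffold of IgE receptor signalling, by 3.10 ± 0.11 (limma adjusted p = 1.1e-05), Syk by 2.95 ± 0.23 (limma adjusted p = 0.00014) and Btk by 2.82 ± 0.11 (limma adjusted p = 1.6e-05). Syk read 6.55, 6.09 and 5.87 in WT and 9.48, 9.15 and 8.73 in KO. Its T cell relative Zap70, named after its values were seen, read 11.13, 11.21 and 11.27 in WT and 9.45, 8.42 and 9.74 in KO, and fell by 2.00 ± 0.31. The same opposition held for the linker Lat2, which rose by 2.58 ± 0.22, and its relative Lat, which fell by 1.65 ± 0.31, both also named after their values were seen. Among 12 phosphatases, ligases and adaptors that restrain ITAM signals, 6 fell and 1 rose. Cblb, a ubiquitin ligase, fell by 1.69 ± 0.14, the phosphatase Ptpn22 by 1.64 ± 0.28, the adaptor Dok2 by 1.39 ± 0.18 and Pag1, which anchors Csk, by 1.27 ± 0.08. The gene that rose was Dok3 (1.22 ± 0.15), named after its value was seen, while Inpp5d and Ptpn6, the phosphatases that ITIM receptors recruit, differed by 0.04 and -0.23 and did not pass. With arrays scaled to their hybridization controls 5 of these 12 rose in place of 1.

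**Figure D3:**
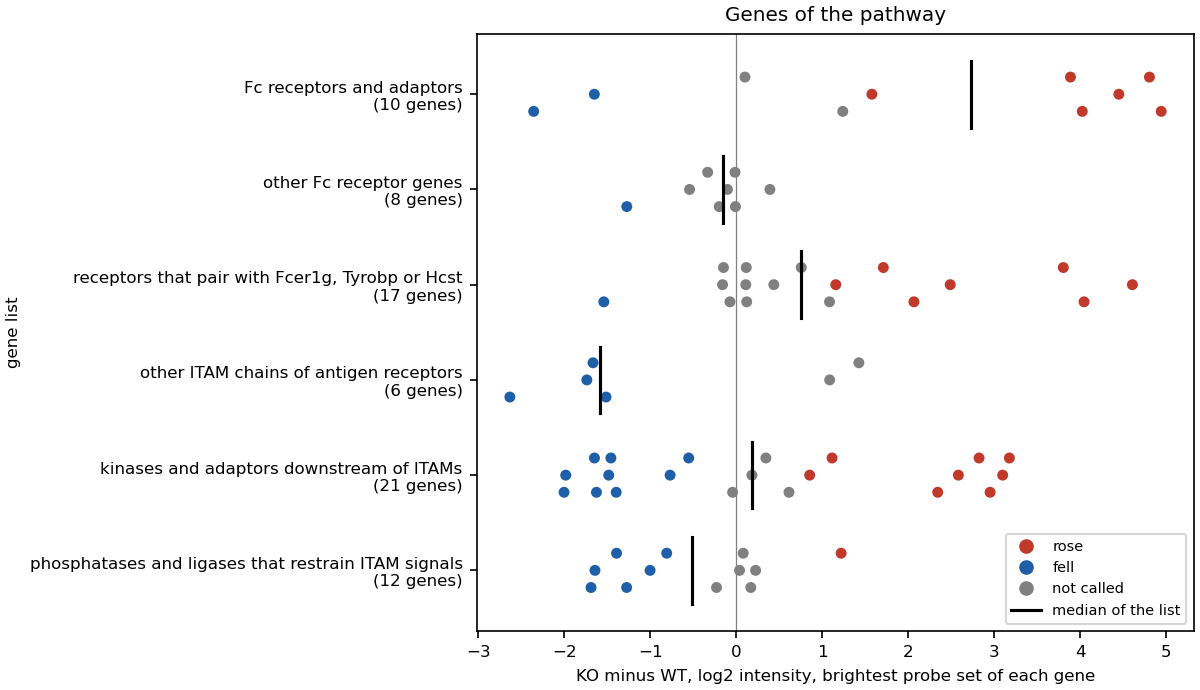
Each point is a gene at its brightest probe set, placed by KO minus WT in log2 intensity (horizontal axis) in its list (vertical axis), with a black bar at the list's median and colour for the limma call. The median is 2.73 for the 10 Fc receptor and adaptor genes, 0.76 for receptors that pair with the adaptors and -1.59 for the antigen receptor chains.

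Markers of most other blood cell types were also higher in KO, while those of NK cells were mostly lower and those of B cells were mixed. Neutrophil markers rose for 10 of 13 genes, with list means of 6.14 to 7.13 on the WT arrays and 9.91 to 12.61 on the KO arrays. Mast cell and basophil markers rose for 7 of 10, with means of 5.76 to 6.00 in WT and 8.28 to 8.64 in KO, but Tpsab1, Tpsb2 and Mrgprb1 differed by 0.04, 0.09 and 0.03. Eosinophil markers rose for 3 of 5 (4.94 to 5.19 in WT, 8.16 to 8.43 in KO), and monocyte and macrophage markers for 9 of 14 (5.40 to 5.90 in WT, 7.41 to 8.34 in KO). Dendritic cell markers rose for 5 of 9 (6.60 to 6.78 in WT, 7.82 to 7.95 in KO) and erythroid markers for 7 of 7 (7.89 to 8.31 in WT, 10.58 to 11.67 in KO). Megakaryocyte and platelet markers rose for 5 of 7 (5.78 to 6.01 in WT, 7.04 to 7.35 in KO). None of the 9 B cell markers was called by limma (2 had an unadjusted p below 0.05). Their mean was 6.21 to 6.62 on the WT arrays and 7.05, 7.40 and 6.46 in KO replicates 1, 2 and 3. The B cell list was split in KO replicate 2. Among the KO arrays Cd79a, Cd79b, Vpreb3, Cd22 and Pax5 were highest in KO replicate 2, and Ms4a1, Blk, Cr2 and Fcer2a were lowest. Markers of NK cells, which also use Tyrobp and Fcer1g, had means of 7.81 to 8.27 in WT and 6.88 to 7.80 in KO. Of these 9, 5 fell (Klre1, Gzma, Prf1, Eomes and Tbx21) and 1 rose (Gzmb). The receptors Ncr1, Klrb1b and Klra8 did not pass, at 4.55, 4.62 and 6.88 in WT and 4.68, 4.56 and 7.96 in KO. Whether NK cells or T cells carried the transcripts that fell was not tested. The part of these other cells in the differences of the Fc receptors and adaptors was not tested.

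The KO arrays differed among themselves in a shared way. Of the 11 probe sets that rose, 9 were highest in KO replicate 1 and 9 were lowest in KO replicate 2, with means over the 11 of 9.96, 9.24 and 9.71 in KO replicates 1, 2 and 3 and of 6.21 to 6.26 in WT. The means of the neutrophil, mast cell and dendritic cell markers took the same order among the KO arrays. KO replicates 2 and 3 were close, however, in the mast cell (8.28 and 8.33) and dendritic cell means (7.82 and 7.85). Within the dendritic cell list the genes were split. Itgax, Flt3, Irf8 and Cd209a took the order of the 11 probe sets, but Zbtb46 and Tcf4 were highest in KO replicate 2. Siglech, Bst2 and Xcr1 were highest in KO replicate 3. The monocyte, erythroid and megakaryocyte means did not take that order and were highest in KO replicate 2 (8.34, 11.67 and 7.35). The monocyte list was split. Csf1r, Lyz2, Ccr2, Cd14 and Cd68 took the order of the 11 probe sets. Vcam1, Cd163, Mrc1, Marco, Cd5l, C1qa, C1qb and C1qc were highest in KO replicate 2, and Adgre1 was lowest in KO replicate 3. The eosinophil mean was highest in KO replicate 1 (8.43) and near 8.16 in both other KO arrays. Hcst, Cd247 and the T cell marker mean were lowest in KO replicate 2, at 8.66, 8.44 and 9.34. With any 1 array left out, 11 or 12 of the 16 probe sets rose and 2 fell.

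**Figure D4:**
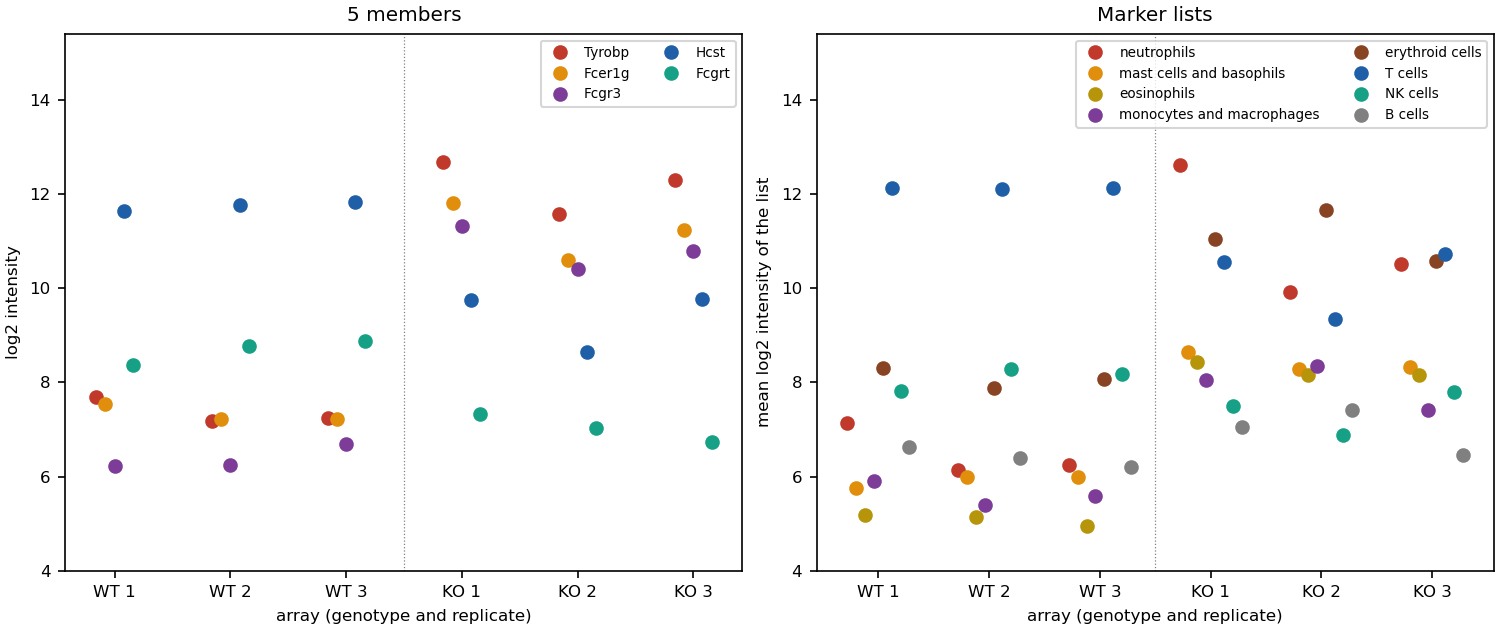
The left panel shows log2 intensity (vertical axis) of 5 genes on each array (horizontal axis), and the right panel the mean log2 intensity of 8 marker lists on the same arrays. Tyrobp, Fcer1g and Fcgr3 are higher on the KO arrays, as are the neutrophil, eosinophil, mast cell and erythroid lists, and Hcst and Fcgrt are lower, as is the T cell list.

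As a description, the genes with the most similar change over the 6 arrays were sought by the root mean square distance between values centred on the WT mean, among 18183 other genes. Nearest to Tyrobp were Gria3 (0.11), Csf1r, through which macrophages receive their growth factor (0.14), and its own partner Trem3 (0.15). Nearest to Fcgr3 were Alox5ap, which serves leukotriene synthesis (0.12), Serpinf1 (0.15) and Serpinb1a, an inhibitor of neutrophil proteases (0.16). Fcer1g was nearest to Cd300lb (0.16), Mtus1 (0.17) and the heparanase Hpse (0.17). Fcer1a had no match so close, its nearest being the neutrophil granule genes Prtn3 (0.27) and Mpo (0.29) and Csf1r (0.27).

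The promoters of 9 of the 10 genes, all but Tyrobp, were matched by symbol in RefSeq tables of GRCm38.p6, each from 250 bases before to 50 after a gene start. A pair of short motifs was searched on both strands, chosen after the sequences were seen: GAGGAA, the core of sites for the myeloid factor PU.1, and GATAA, the core of GATA factor sites. GAGGAA was found in 4 of the 9 genes, Fcer1a, Fcgr1, Fcgr3 and Fcgr4, and in 28.3% of all promoter windows of that length. In Fcer1a, Fcgr1, Fcgr3 and Fcgr4 it began 216, 55, 15 and 22 bases before the start (6 at another listed start of Fcgr3). GATAA was found in Fcer1a, Ms4a2 and Fcgr1 and in 25.4% of all windows, with 3 matches in Ms4a2, and no match overlapped one of the other motif. The windows of Fcer1g, Fcgr2b, Fcgrt and Hcst held neither. Printed here with motif matches in capitals are the IgE receptor chains and Fcgr3, which rose, Fcgr4, which has the same motif near its start and did not pass the test, and Hcst, which fell. A match is a run of letters and not a known site. The windows are chr1:173227180-173227479 (Fcer1a, minus strand), chr19:11623670-11623969 (Ms4a2, minus strand), chr1:171059345-171059644 (Fcgr3, minus strand), chr1:171018676-171018975 (Fcgr4, plus strand) and chr7:30419805-30420104 (Hcst, minus strand).
Fcer1a: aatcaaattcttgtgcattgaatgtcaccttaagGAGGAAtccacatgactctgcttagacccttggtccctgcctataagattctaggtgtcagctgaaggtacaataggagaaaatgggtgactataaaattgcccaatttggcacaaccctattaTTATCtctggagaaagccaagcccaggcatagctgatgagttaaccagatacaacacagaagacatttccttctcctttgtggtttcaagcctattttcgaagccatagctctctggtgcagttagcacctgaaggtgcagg
Ms4a2: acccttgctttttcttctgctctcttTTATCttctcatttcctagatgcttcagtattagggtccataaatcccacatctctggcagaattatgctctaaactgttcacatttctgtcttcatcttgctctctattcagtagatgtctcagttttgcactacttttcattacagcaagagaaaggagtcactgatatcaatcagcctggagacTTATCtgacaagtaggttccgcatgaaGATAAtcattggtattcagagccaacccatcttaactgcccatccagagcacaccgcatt
Fcgr3: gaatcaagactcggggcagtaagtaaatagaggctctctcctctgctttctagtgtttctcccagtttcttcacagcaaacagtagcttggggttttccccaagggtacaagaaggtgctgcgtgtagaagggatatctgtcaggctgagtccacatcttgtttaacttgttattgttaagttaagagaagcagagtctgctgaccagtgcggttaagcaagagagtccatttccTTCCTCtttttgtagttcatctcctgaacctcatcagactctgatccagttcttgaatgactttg
Fcgr4: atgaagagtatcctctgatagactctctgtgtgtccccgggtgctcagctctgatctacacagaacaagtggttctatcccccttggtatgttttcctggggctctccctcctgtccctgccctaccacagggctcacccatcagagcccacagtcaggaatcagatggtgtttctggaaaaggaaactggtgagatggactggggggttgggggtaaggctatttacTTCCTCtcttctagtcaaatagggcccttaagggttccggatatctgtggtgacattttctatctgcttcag
Hcst: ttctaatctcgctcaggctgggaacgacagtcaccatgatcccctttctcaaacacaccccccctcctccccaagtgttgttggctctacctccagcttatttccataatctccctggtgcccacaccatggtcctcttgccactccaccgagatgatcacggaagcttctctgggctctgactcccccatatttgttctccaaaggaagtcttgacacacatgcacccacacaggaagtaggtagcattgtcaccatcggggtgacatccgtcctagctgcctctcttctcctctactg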

How the data were processed

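The deposited values were log2 probe-set intensities made with RMA (version not given) per the submitters' processing notes, from 1 Affymetrix array per animal, and RNA was amplified from oligo(dT) and random primers per the labels' protocols. They were used as deposited, without filter or pseudocount. RMA gives no detection call, and differences of dim probe sets are understated. Replicates are separate animals, and 3 arrays a group limit the precision. Of 45101 probe sets 64 were array controls, and of the 45037 tested 34945 had 1 gene in the platform annotation, 932 had several and 9160 had none. Entrez IDs matched 34741 to the GRCm38.p6 gene table. Genes in lists were taken at their brightest probe set by mean over the 6 arrays (18193 genes).

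limma 3.58.1 in R 4.3.3 (lmFit, eBayes, genotype as the only term) was tested on simulated data first. Contrasts between genes were tested by exact permutation over arrays. Alternatives were a filter at the median level (5.77), repeated quantile normalization, median centring, scaling to 18 hybridization controls, weights for arrays, a robust fit with trend, a block for replicate numbers, a threshold of 0.10, limma's treat with 1.5-fold as the least change, each array left out, and means of probe sets.

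Named were all probe sets of the 10 genes, the 3 genes nearest in pattern to each of 4 of them, and in each of the 5 pathway lists up to 4 called genes with the largest differences. Other list genes and neighbours were named after their values were seen. The genes and lists were chosen with earlier results of these data known. Several list genes, such as Lck and Lyn, had no probe set with 1 gene in the annotation and are not analysed here. No column was left unused.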

Additional observations from a re-analysis of the deposited data

How the results depend on the processing

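Fcer1a, Ms4a2, Fcer1g, Fcgr3, Tyrobp, Hcst, Fcgrt, the rising Fcgr1 probe set and the 4 rising Fcgr2b probe sets kept direction and call under every alternative run on them. The number of the 16 probe sets that rose was between 9 (of 13 left by the filter on low values) and 13 (hybridization-control scaling), and 2 fell in each. That scaling moved the median difference of all probe sets from -0.08 to 0.29 and the share of rises among all calls from 47.2% to 88.1%. It turned Fcgr2b 1447622_at to 0.24. Under it 1 other Fc receptor gene, 11 receptors that pair with the adaptors, 1 antigen receptor chain and 5 restraining genes rose. Array weights and an adjusted p below 0.10 each gave 2 other Fc receptor genes that fell, and the latter gave 1 antigen receptor chain that rose. A minimum change of 1.5-fold left 1 antigen receptor chain that fell and 5 downstream kinases and adaptors in each direction. Leaving out single arrays gave 0 to 1 other Fc receptor genes that rose and 1 to 3 that fell, 0 to 1 antigen receptor chains that rose, and -0.785 to 0.044 for Fcgr4 minus Fcgr2b. Fcgr1 minus Fcgr2b reversed to 0.23 against Fcgr2b 1447622_at and to 0.073 with Fcgr1 1417876_at, both chosen after seeing the data. Beyond the probe sets used, the causes of these changes were not tested.

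Same-numbered arrays did not deviate together (correlations of 0.10, -0.24 and -0.20 over probe sets), and arrays of unlike number gave -0.16 to 0.27. The labels state no pairing, but with 3 arrays a group these correlations cannot exclude one. With the replicate number as a block 11 of the 16 probe sets rose and 2 fell, and over all probe sets 5296 rose and 5117 fell in place of 6242 and 6986.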
